A study of Mus musculus with 2 samples.

Results

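The genotype ratio of liver RNA, Wip1 knockout (KO) over wild type (WT), was compared between 36 h and 24 h after partial hepatectomy, in which part of the liver is cut away and the remnant regrows. For each gene the log2 ratio at 24 h was subtracted from the log2 ratio at 36 h. A gene was included when it had a name and its brightest probe exceeded the background around its spot by over 2 SDs of that background in all 4 channels. This held for 7025 of 19439 named genes (36.1%), while 8018 genes met the criterion at 24 h and 7460 at 36 h. A positive difference is called a move up (Wip1 KO gained on WT between the times) and a negative one a move down.

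The 4 groups were livers of Wip1 KO mice at 24 h, WT mice at 24 h, Wip1 KO mice at 36 h and WT mice at 36 h. All mice were 3 months old and all had been operated on, and no liver without the operation was measured. A single array was used at each time, and on both of them Cy5 marked the Wip1 KO RNA and Cy3 the WT RNA. A dye preference that is the same for a gene on both arrays cancels in the difference, whereas it does not cancel in the ratio of 1 array. The labels name neither the sex of the mice, nor the allele used, nor the number of animals behind a channel. Without replicates the spread between animals is unknown, and no test was made. A 2-fold move is a threshold on size, and every difference is one between these 4 RNA samples.

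Wip1, the protein made from Ppm1d, is a phosphatase that switches off p53, p38 and other proteins of the DNA damage and stress responses. After partial hepatectomy the hepatocytes leave rest, copy their DNA and divide, and the cells of the bile ducts, sinusoids and matrix follow. Immediate early genes and the IL-6 driven acute phase response accompany the first phase, and the remnant keeps up its work of making plasma proteins, urea, cholesterol and bile acids.

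Ppm1d had 1 probe and was not above background in any channel (log2 intensities 6.37 and 6.26 for Wip1 KO and WT at 24 h, 6.47 and 6.52 at 36 h), so the arrays gave no check of the deletion. Albumin RNA was bright in all 4 channels: Alb was at 15.16 in Wip1 KO and 14.72 in WT at 24 h, and at 14.91 and 14.72 at 36 h. Of 25 pancreatic markers on the array, 22 were above background in no channel. Between 31.1% and 41.4% of 31920 gene probes were above background in a channel, with Wip1 KO below WT at both times. Copies of 1 control probe (48 spots each) gave SDs of the difference of 0.11 to 0.14 on the log2 scale. Mean differences of these controls were -0.67 for ACTB, -0.64 for RPL5, -0.29 for LDHA and 0.10 for GAPD. Different probes of the same gene gave an SD of 0.35 (717 genes). These values describe spots and probes, not animals.

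Over the 7025 genes the difference had a median of 0.03 and an SD of 0.62, and its middle 50% of genes lay between -0.27 and 0.34. It was above 0 in 3737 genes (53.2%). The ratio itself had an SD of 0.39 at 24 h and 0.51 at 36 h, and across genes the ratios of both times were nearly unrelated (Pearson r = 0.065; genes are not replicates, and each ratio carries the shared dyes). The ratio moved up at least 2-fold in 287 genes (4.09%) and down at least 2-fold in 294 (4.19%), which is 8.27% in all. At 24 h 143 of the 7025 genes (2.04%) were at least 2-fold apart between genotypes and at 36 h 330 (4.7%). With each array centred on its median in place of the intensity-dependent loess curve, the median of all genes was 0.22 and the split was 475 up and 213 down; counted relative to that shift it was 263 and 322. More genes were far from their 24 h ratio than were far from equality at either time. A difference of 2 nearly unrelated ratios spreads wider than either ratio, so nothing is read from this. Just past the threshold lay Il11ra2 (1.0004), Cyp2d13 (1.0030) and Ugdh (1.0037) upward and Gnb1 (-1.0055), Wdr1 (-1.0067) and Frmd6 (-1.0098) downward. Just short of it lay Fgg (0.9997), F10 (0.9996) and Smpd1 (0.9987) upward and Ppp1r14b (-0.9978), Retnlg (-0.9967) and Selenom (-0.9961) downward.

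**Figure D1:**
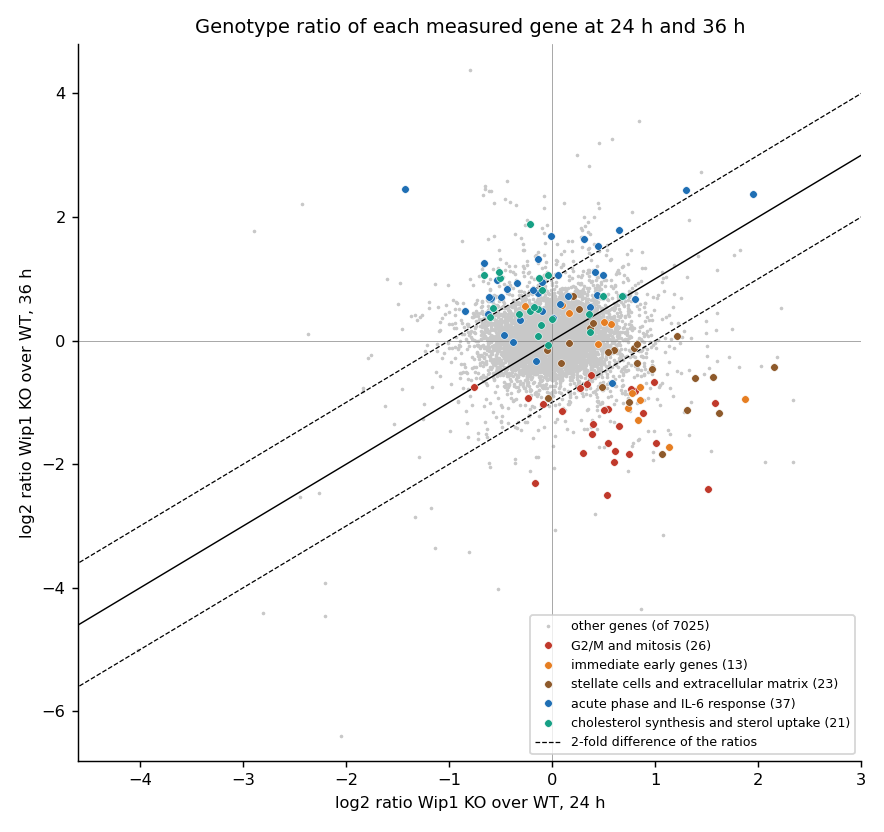
Log2 ratio of Wip1 KO over WT at 36 h (vertical axis) against that at 24 h (horizontal axis), 1 point per gene for 7025 genes, with 5 gene groups coloured. Points on the solid line have the same ratio at both times and dashed lines mark a 2-fold difference of the ratios; mitotic genes lie below the solid line (25 of 26, with 22 of them below the 2-fold line as well) and acute phase genes mostly above the solid line (34 of 37).

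Most genes past the threshold crossed equality. Choosing large differences between 2 nearly unrelated ratios favours opposite signs, so the counts below describe the chosen genes and show no reversal by themselves. Of the 287 genes that moved up, 234 had ratios of opposite sign at the 2 times, with a median of -0.48 at 24 h and 0.93 at 36 h. Of the 294 that moved down, 254 had opposite signs, with medians of 0.67 and -0.82. In 120 of the genes that moved up and 85 of those that moved down the ratio was 2-fold apart at 36 h alone, and in 30 and 45 at 24 h alone. A further 132 and 141 genes were short of 2-fold at both times and passed the threshold only in the difference. Only 19 genes were at least 2-fold apart one way at 24 h and at least 2-fold the other way at 36 h, 16 of them downward.

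The difference was split into the time changes of the genotypes, using single-channel intensities made comparable between arrays. The differences between the times were wider in Wip1 KO: the SD of the log2 change from 24 h to 36 h was 0.54 in Wip1 KO and 0.40 in WT, and 435 genes (6.19%) against 183 (2.6%) differed at least 2-fold between the times. Among the 287 genes that moved up, 240 were higher at 36 h in Wip1 KO and lower in WT, with median changes of 0.93 and -0.46. Among the 294 that moved down, 249 were lower at 36 h in Wip1 KO and higher in WT, with medians of -1.03 and 0.50. Choosing genes by the Wip1 KO change minus the WT change favours opposite changes, so nothing is read from these counts. The Wip1 KO change was the larger of both in 209 of the 287 genes and in 214 of the 294. Wip1 KO was in Cy5 and WT in Cy3 on both arrays, so genotype and dye cannot be told apart in the size of these changes.

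**Figure D2:**
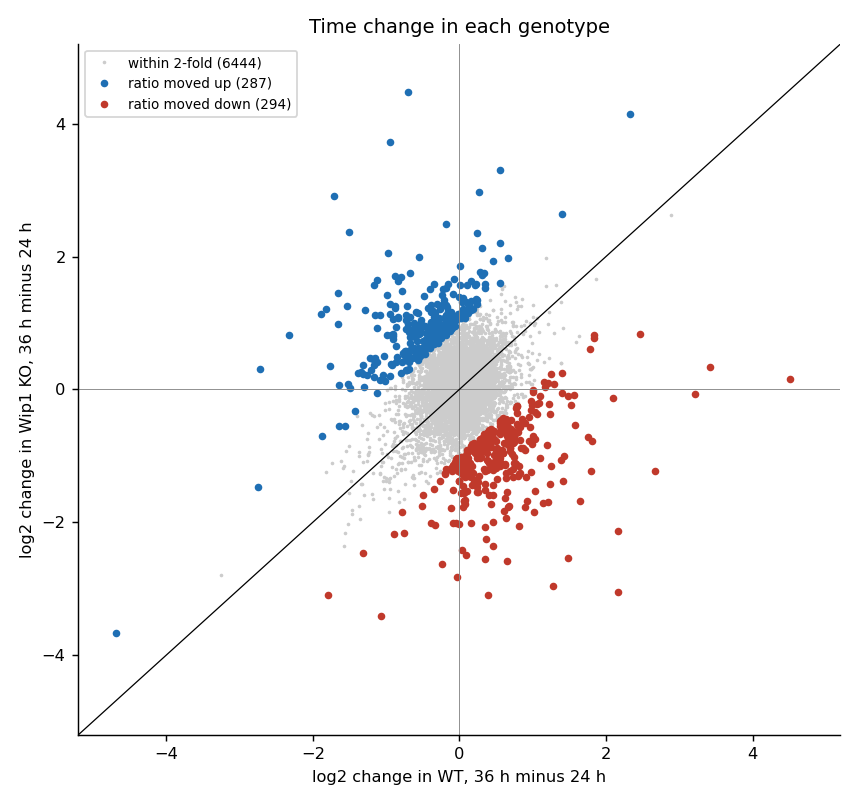
Log2 change from 24 h to 36 h in Wip1 KO (vertical axis) against that in WT (horizontal axis) for 7025 genes; blue points moved up at least 2-fold in the ratio (287 genes), red points moved down (294 genes), and the diagonal marks equal change. Most coloured points lie in the quadrants where the genotypes went in opposite directions, 240 of the blue and 249 of the red. The choice of genes by the difference favours these quadrants.

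Functions were read from 46 gene lists, 42 of which had at least 5 measured genes. A list is described by its median and by how many of its measured genes moved, beside 4.09% up and 4.19% down over all genes. Lowest stood G2/M and mitosis genes (median difference -1.82), immediate early genes (-1.60) and female-biased liver genes (-1.39). Highest stood male-biased liver genes (1.85), acute phase genes (1.00), cholesterol synthesis (0.72) and complement and coagulation (0.66). With median centring several small medians came nearer to 0: -0.20 for G1/S and replication, -0.14 for fatty acid oxidation, -0.11 for glutathione genes, -0.056 for p53 targets and -0.046 for DNA damage and repair.

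**Figure D3:**
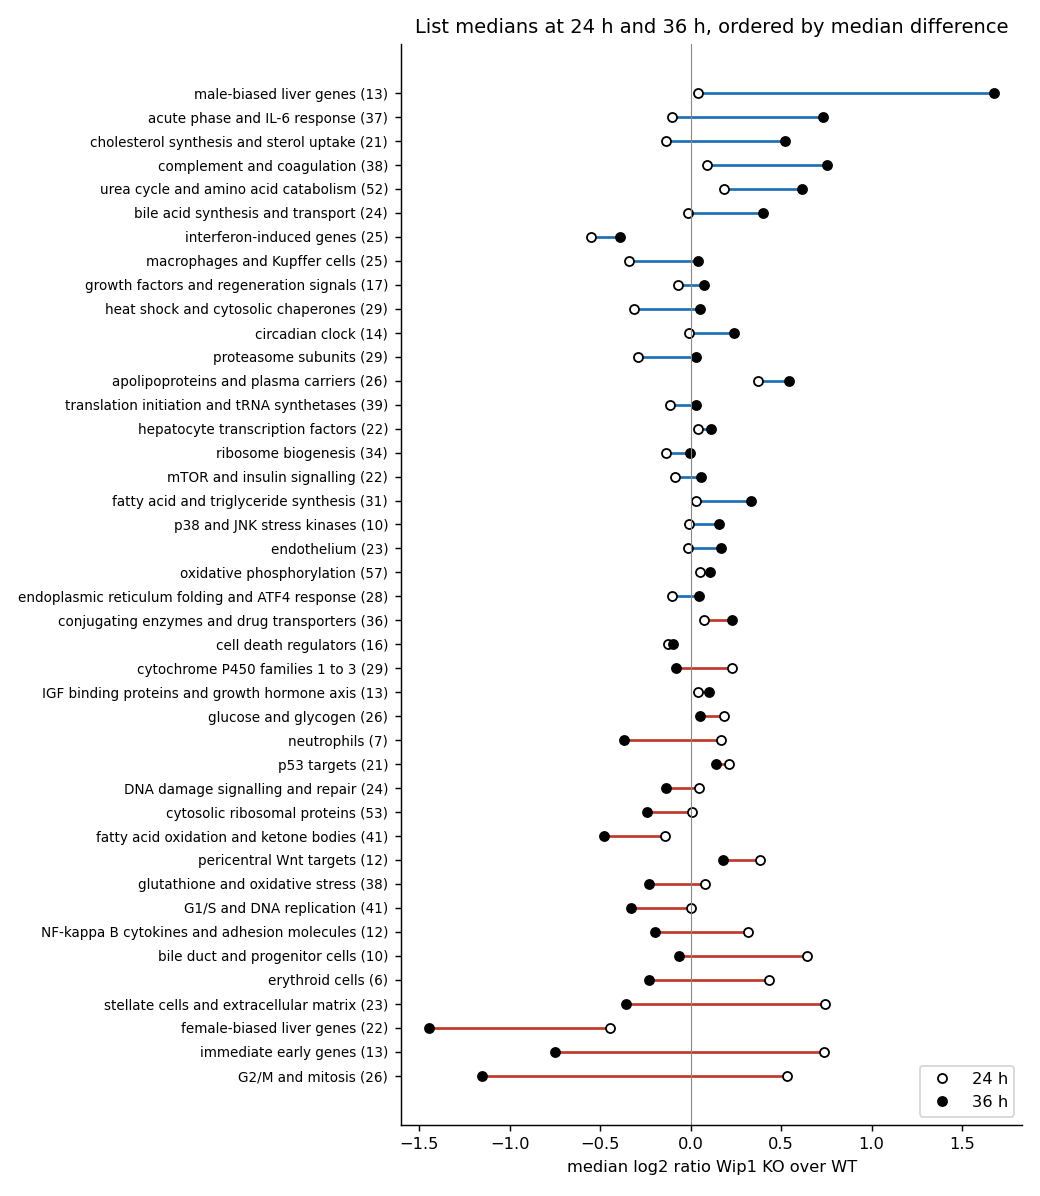
Median log2 ratio of Wip1 KO over WT at 24 h (open circles) and 36 h (filled circles) for 42 gene lists, with the number of measured genes in brackets, ordered by the median difference; blue lines have a median difference above 0 and red lines below. G2/M and mitosis genes go from 0.53 to -1.16 and immediate early genes from 0.74 to -0.75, whereas male-biased genes go from 0.04 to 1.68.

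Genes of mitosis turned from higher to lower in Wip1 KO. Of 26 measured genes of G2 and mitosis 25 moved down and 22 did so at least 2-fold, and the list median went from 0.53 at 24 h (22 of 26 above 0) to -1.16 at 36 h (0 of 26 above 0). Both genotypes contributed: the median change was -1.19 in Wip1 KO, where all 26 genes were lower at 36 h, and 0.69 in WT, where 23 were higher. The largest move was that of Ccnb2, which encodes cyclin B2, an activator of the mitotic kinase. Its log2 intensity was 10.24 in Wip1 KO and 8.72 in WT at 24 h, and 9.0 and 11.40 at 36 h, so that the ratio went from 1.52 to -2.40, a difference of -3.91 (15.0-fold). Wip1 KO was the high channel at 24 h and WT at 36 h.

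Cdk1, the mitotic kinase itself, was at 11.42 and 10.81 at 24 h and at 9.88 and 11.85 at 36 h (Wip1 KO and WT; difference -2.57, 5.93-fold). Cenpa, the centromeric histone, was at 9.72 and 9.19 and then at 8.49 and 10.99 (difference -3.03). Mki67, the proliferation marker Ki-67, was at 10.83 and 9.25 and then at 9.15 and 10.17 (-2.60). In all 3 genes Wip1 KO was higher than WT at 24 h and lower at 36 h. The spindle checkpoint kinase Ttk crossed in the same way, from 9.86 and 8.85 to 8.08 and 9.75 (-2.67). The condensin subunits Smc2 and Smc4 (-1.63 and -1.64), the aurora kinases Aurka and Aurkb (-2.13 and -1.55) and the survivin gene Birc5 (-2.40) were on the same side. The securin gene Pttg1, an inhibitor of sister chromatid separation, was the 1 measured gene of the list that did not move (0.01), being below equality at both times (-0.76 and -0.75).

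A further 17 genes of the list were not above background in exactly 1 channel. With that channel set at the higher of its own value and the lowest signal above background there, 16 of the 17 were at least 2-fold down. Only a dim Wip1 KO channel at 36 h or a dim WT channel at 24 h allows such a downward bound, so low values decided both the entry and the direction, and nothing is read from the count. Over all 649 genes with such a dim channel 121 were at least 2-fold down (18.6%). Among them, at the value set, Cdc20, the activator of the anaphase promoting complex, was 14.6-fold down and Ccnb1 (cyclin B1) 6.21-fold. Ccna2 (cyclin A2) was 4.83-fold and Top2a (topoisomerase II alpha) 4.59-fold down. The true signal of a dim channel may lie above or below that value, so such folds are estimates and set no firm limit. In 15 of these 16 genes the dim channel was Wip1 KO at 36 h, and for Cdc20 it was WT at 24 h.

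The promoters of mitotic genes are known for the CHR element TTTGAA, through which repressor complexes keep these genes low outside G2 and mitosis, and for CCAAT boxes, through which NF-Y activates them. Both motifs were searched on both strands in windows from 250 bases before to 50 bases after the gene start (RefSeq, GRCm38.p6). Of the 19 mitotic genes with a window, 14 held TTTGAA (73.7%) and 14 held CCAAT (73.7%), 13 of them at least 2 copies (68.4%). Over all 27025 windows the shares were 18.1%, 37.9% and 12.2%, and over the 5356 windows of measured genes 12.6%, 39.1% and 15.5%. Both motifs stood together in 13 of the 19 windows (68.4%), against 5.43% of the measured genes. In the 217 windows of all genes that moved down at least 2-fold the shares were 22.1% for TTTGAA and 11.5% for both. The windows of Birc5, Nuf2, Mad2l1 and Pttg1 held neither motif, so that genes with and without a match were found on both sides of the 2-fold threshold. The windows of the 5 mitotic genes with the lowest differences that have one are given because both motifs recur in them; they run 5′ to 3′ on the gene's strand, with TTTGAA and CCAAT, or their complements TTCAAA and ATTGG, in capitals. A match is a description of the letters and no evidence of binding.
Ccnb2: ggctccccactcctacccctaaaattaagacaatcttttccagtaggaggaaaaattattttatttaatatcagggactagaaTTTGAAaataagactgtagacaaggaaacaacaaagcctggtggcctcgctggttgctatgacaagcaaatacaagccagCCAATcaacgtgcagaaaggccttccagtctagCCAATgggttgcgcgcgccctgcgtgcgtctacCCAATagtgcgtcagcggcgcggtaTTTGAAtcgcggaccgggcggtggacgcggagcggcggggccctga
Cenpa: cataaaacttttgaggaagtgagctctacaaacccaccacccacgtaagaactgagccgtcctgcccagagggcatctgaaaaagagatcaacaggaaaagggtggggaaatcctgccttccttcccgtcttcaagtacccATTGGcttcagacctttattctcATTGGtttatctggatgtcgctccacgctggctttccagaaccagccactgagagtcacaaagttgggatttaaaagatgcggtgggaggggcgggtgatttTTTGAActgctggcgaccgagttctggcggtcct
Ttk: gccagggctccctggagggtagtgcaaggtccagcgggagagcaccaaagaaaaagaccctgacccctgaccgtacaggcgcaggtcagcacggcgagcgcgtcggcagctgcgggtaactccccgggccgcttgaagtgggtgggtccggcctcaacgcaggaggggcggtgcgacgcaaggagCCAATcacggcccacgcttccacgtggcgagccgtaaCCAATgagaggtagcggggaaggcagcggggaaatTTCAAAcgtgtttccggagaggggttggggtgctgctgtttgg
Mki67: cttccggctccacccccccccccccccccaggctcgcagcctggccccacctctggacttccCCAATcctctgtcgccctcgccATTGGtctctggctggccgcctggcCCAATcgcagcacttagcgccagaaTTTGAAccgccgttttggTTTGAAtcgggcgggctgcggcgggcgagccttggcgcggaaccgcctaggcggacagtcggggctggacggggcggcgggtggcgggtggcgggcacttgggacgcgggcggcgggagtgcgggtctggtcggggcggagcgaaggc
Cdk1: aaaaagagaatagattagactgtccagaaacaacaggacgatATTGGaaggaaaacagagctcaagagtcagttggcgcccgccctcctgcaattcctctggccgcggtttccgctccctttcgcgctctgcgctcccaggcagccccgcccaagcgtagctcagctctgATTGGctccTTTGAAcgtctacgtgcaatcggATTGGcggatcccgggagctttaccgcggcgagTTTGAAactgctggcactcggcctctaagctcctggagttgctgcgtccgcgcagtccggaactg
These windows lie at chr9:70421505-70421804 (Ccnb2, minus strand), chr5:30666636-30666935 (Cenpa, plus strand), chr9:83834439-83834738 (Ttk, plus strand), chr7:135716330-135716629 (Mki67, minus strand) and chr10:69352863-69353162 (Cdk1, minus strand).

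Genes of DNA synthesis moved less. Of 41 measured genes of G1/S and replication 33 were below 0, with a median of -0.39, 5 moved down and 1 moved up at least 2-fold. Their intensity was lower at 36 h in both genotypes, by a median of 1.06 log2 units in Wip1 KO (39 of 41 lower) and 0.65 in WT (38 of 41), with the larger decrease in Wip1 KO. The replication licensing factor Cdt1 went from 9.37 in Wip1 KO and 9.59 in WT to 8.25 and 10.36 (-1.89), and Ccnd1, the G1 cyclin D1, from 10.24 and 10.38 to 9.36 and 11.24 (-1.75). In both genes the genotypes were close at 24 h and Wip1 KO was lower at 36 h. Uhrf1, which carries DNA methylation through replication, was at -1.30, thymidylate synthase Tyms at -1.07 and the ribonucleotide reductase subunit Rrm2 at -1.07. The helicase subunits Mcm3 to Mcm7 lay between -0.51 and -0.05. The exception was Mcm10, another replication factor, with 8.66 and 8.74 at 24 h and 10.42 and 8.07 at 36 h (2.42). TTTGAA was present in 3 of 32 G1/S windows (9.38%) and CCAAT in 21 (65.6%).

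The p53 targets, the genes nearest to the known role of Wip1, showed little common movement. Of 21 measured targets 12 were below 0 and 9 above, the median was -0.21, and 1 gene moved each way at least 2-fold. Gadd45a, a growth arrest gene, moved down: it was at 9.21 and 8.05 at 24 h and at 9.24 and 9.22 at 36 h (-1.13). There the Wip1 KO level was the same at both times and WT came up to it. Cdkn1a, the cell cycle inhibitor p21, went from a ratio of 0.67 to 0.04 (-0.62), and Mdm2, which degrades p53, was at -0.09. Ddit4, an inhibitor of mTOR that is also a p53 target, moved up (1.26). Of 24 measured DNA damage and repair genes none passed 2-fold (median -0.22), with H2ax lowest (-0.68) and Atm highest (0.85). In the p38 and JNK list of 10 genes (median 0.07) the p38 kinase Mapk14, which Wip1 is known to dephosphorylate, was at 1.04, the upstream kinase gene Map2k4 at 1.02, Gadd45g at 1.07 and Gadd45b at -1.57.

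Immediate early genes, which answer growth factors and stress within minutes to hours, moved down: 10 of 13 measured genes were below 0, 7 moved down and 0 moved up at least 2-fold, and the median went from 0.74 to -0.75. Egr1, a transcription factor of this class, had log2 intensities of 10.32 and 8.45 at 24 h and 7.96 and 8.91 at 36 h (difference -2.82, 7.05-fold). Ier3, a survival gene induced by NF-kappa B, was at 10.35 and 9.21 and then at 8.50 and 10.23 (-2.86). Wip1 KO was the higher channel for both genes at 24 h and the lower at 36 h. The matrix protein gene Ccn1 (-2.11), the Kruppel-like factors Klf10 and Klf6 (-1.82 and -1.81) and the ERK phosphatase Dusp6 (-1.60) moved likewise, whereas Junb was at 0.82 and Jun at -0.30. Only 13 of 30 genes of the list on the array were above background in all 4 channels, and over all 30 the median was -0.43. With a stricter filter of 4 background SDs, 4 genes of the list remained, with a median of -0.012.

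Myc, another early growth gene, was dim in Wip1 KO at 36 h and 2.9-fold down at the value set for that channel. Id1, an inhibitor of helix-loop-helix transcription factors and a target of BMP signalling, crossed from 10.70 and 9.16 to 9.02 and 10.80 (-3.33, 10.0-fold). Igfbp1, the hepatic IGF binding protein that is induced early after hepatectomy, crossed from 12.83 and 10.77 to 10.30 and 12.25 (-4.02, 16.3-fold). It was the outlier of its list of 13 genes of the IGF and growth hormone axis, whose median was -0.14. Of 12 NF-kappa B cytokine and adhesion genes, 11 were below 0 (median -0.44), and 4 moved down: Il1b (-1.65), Ccl2 (-1.64), Vcam1 (-1.18) and the inhibitor gene Nfkbia (-1.01), while Sod2, the mitochondrial superoxide dismutase, moved up (1.09). Growth factors and receptors diverged, with the EGF receptor gene Egfr (1.53) and Gas6, a ligand of the Axl receptors (1.25), up and the ligands Hbegf (-1.48) and Pdgfa (-1.12) down.

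**Figure D4:**
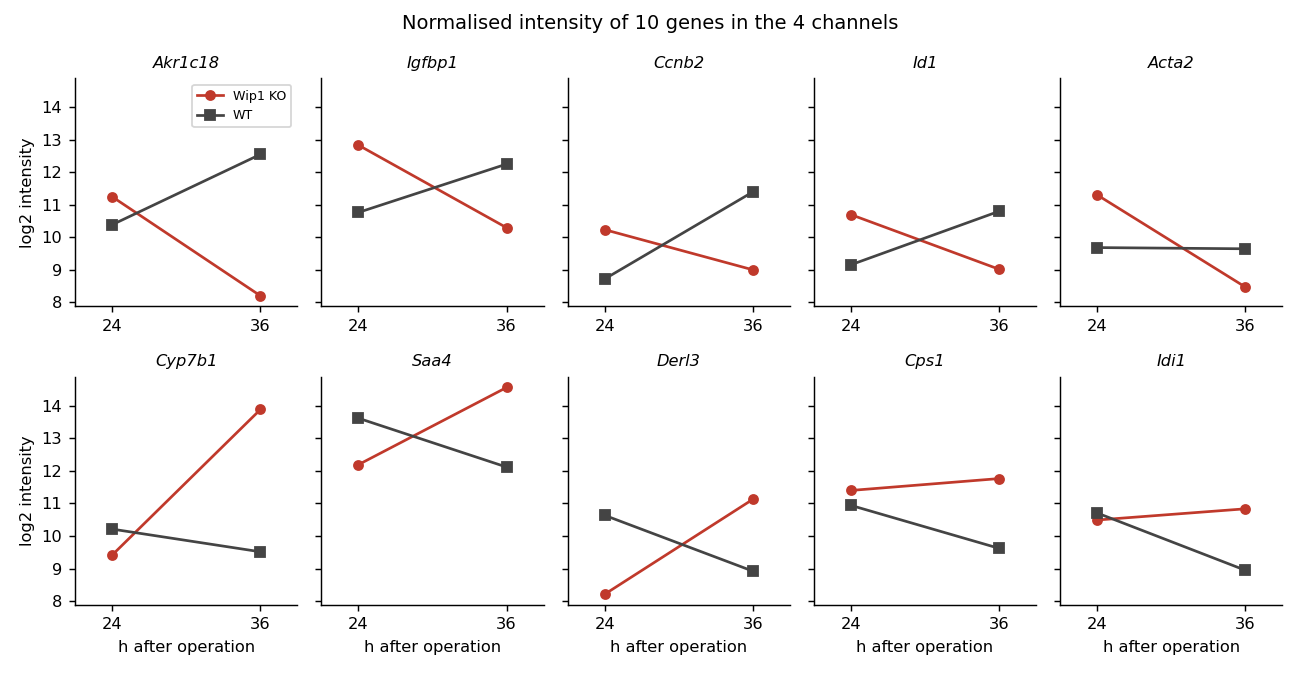
Normalised log2 intensity of 10 genes in the 4 channels, Wip1 KO (red circles) and WT (grey squares), at 24 h and 36 h after the operation; each point is 1 channel and lines join the times of a genotype. In Igfbp1, Ccnb2, Id1, Akr1c18 and Acta2 Wip1 KO lies above WT at 24 h and below it at 36 h, and in Cyp7b1, Saa4, Derl3 and Idi1 the order is the opposite; Cps1 is higher in Wip1 KO at both times.

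Markers of non-parenchymal cells took part. In bulk RNA, fewer cells of a type and less RNA per cell cannot be told apart. Of 23 measured genes of stellate cells and the extracellular matrix 21 were below 0 and 11 moved down at least 2-fold, none up, and the list median went from 0.74 to -0.36. The summed intensity of these 23 markers was 69168 in Wip1 KO and 45444 in WT at 24 h, and 41463 and 45923 at 36 h, so that 1 of 4 channels, Wip1 KO at 24 h, stood above the rest. Acta2, smooth muscle actin and the usual mark of an activated stellate cell, was at 11.30 and 9.69 at 24 h and at 8.47 and 9.65 at 36 h (-2.79, 6.94-fold). The WT level was nearly the same at both times. Col1a2, which encodes a collagen I chain, was at 11.21 and 9.05 and then at 8.71 and 9.14 (-2.59), and the intermediate filament gene Vim at -1.99, Sparc at -2.16, Tagln at -2.90 and Lgals1 at -2.43. Col15a1 (0.52) and the fibronectin gene Fn1 (0.24), which hepatocytes also make, were above 0. Timp1, an inhibitor of matrix proteases, was not above background in Wip1 KO at 36 h. It moved down by 2.69 on the log2 scale at the value set for that channel. Of 47 genes of the list on the array, 12 were above background in no channel.

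Of 10 measured bile duct and progenitor markers, 4 moved down and 0 up (median -0.66): Spp1, the secreted protein osteopontin (-1.97), the keratins Krt19 (-1.59) and Krt7 (-1.37), and the tight junction gene Cldn7 (-1.06). Spp1 was at 12.33 and 10.62 at 24 h and at 10.32 and 10.58 at 36 h, so here too Wip1 KO at 24 h stood alone. The summed intensity of the list was 61714 in Wip1 KO and 39950 in WT at 24 h, and 45100.3 and 40381 at 36 h. The 4 genes that moved made up a small part of this sum, so it mostly follows the other measured genes of the list. Prom1, a progenitor marker that is also on the female-biased list, was not above background in Wip1 KO at 36 h. It was 24.3-fold down at the value set for that channel. The globin genes Hbb-b1 (-1.78) and Hba-a1 (-1.43), which stand for red blood cells and whose probes may take up RNA of related globins, moved down with the carbonic anhydrase gene Car2 (-1.15), while Alas2, the erythroid enzyme of haem synthesis that is also on the male-biased list, moved up (1.41). The 6 measured erythroid genes summed to 47104 and 24673 at 24 h and to 32253 and 40107 at 36 h. Pf4, a chemokine stored in platelets, crossed from 9.61 and 7.27 to 7.47 and 9.43 (-4.30, 19.6-fold). Without the filter on dim spots the medians were nearer to 0, at -0.24 for the 28 bile duct genes and -0.074 for the 16 erythroid genes on the array. The part of these cell types in the moves of other genes was not tested.

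Leukocyte genes did not move as a group. Among 25 macrophage and Kupffer cell genes 18 were above 0 (median 0.36), with 3 up and 3 down at least 2-fold. The Kupffer cell lectin Clec4f was at 10.77 and 11.97 at 24 h and at 12.28 and 11.74 at 36 h (1.73), and the scavenger protein gene Cd5l was at 1.16 and the class II gene H2-Eb1 at 1.13. On the other side stood the lysozymes Lyz2 (-1.38) and Lyz1 (-1.35), near copies whose probes may take up each other's RNA, and the Fc receptor Fcgr3 (-1.29). Of 7 neutrophil genes S100a9 moved down (-1.01) and Prtn3 and Lcn2 moved up (1.51 each), and Lcn2 is also made by hepatocytes in the acute phase. The 3 measured lymphocyte genes were Zap70 (-1.21), Cd3d (-0.26) and Cd3g (1.28), while 11 of 24 lymphocyte genes on the array were above background in no channel. Endothelial genes were balanced (23 measured, median 0.06), with Stab2 (1.20) and Cldn5 (1.25) up. Summed intensities over the 4 channels ran from 54712 to 66777 for macrophages, from 18856 to 22308 for endothelium and from 26493 to 42412 for neutrophils. Lcn2 made up most of the neutrophil sum, so that sum follows this gene. Its log2 intensities were 14.50 in Wip1 KO and 15.03 in WT at 24 h, and 15.15 and 14.17 at 36 h.

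Genes known to differ between male and female mouse liver moved in opposite directions. All 13 measured male-biased genes were above 0, 11 of them at least 2-fold, and the list median went from 0.04 to 1.68. Of 22 measured female-biased genes 21 were below 0, with 13 moving down and 1 (Cyp2c39, 1.02) moving up, and the median went from -0.44 to -1.45. Cyp7b1, an oxysterol hydroxylase of the bile acid pathway that is higher in males, was at 9.41 and 10.21 at 24 h and at 13.89 and 9.51 at 36 h (5.17, 36.0-fold). Only Wip1 KO at 36 h was high. A1bg, a plasma glycoprotein gene that is higher in females, was at 8.31 and 10.37 and then at 8.48 and 14.88 (-4.35, 20.4-fold). Here WT at 36 h was the high channel and Wip1 KO was low at both times.

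Other female-biased genes on the way down were Cyp2b9, a P450 that crossed from 12.42 and 11.34 to 9.47 and 12.62 (-4.23), Cyp17a1, the steroid 17-alpha hydroxylase (13.21 and 12.79, then 10.63 and 13.44; -3.23), and the sulfotransferase Sult2a2 (-2.26). Other male-biased genes on the way up were the complement gene C6 (2.67), the peroxisomal hydrolase Nudt7 (2.76), the esterase Es31 (2.54), Cyp2d9 (2.46), and the organic anion transporter Slco1a1 (1.85). The major urinary proteins, which male livers secrete in quantity, moved up as well, with Mup4 at 12.47 and 13.08 at 24 h and at 14.53 and 12.10 at 36 h (3.03, 8.19-fold). Mup5 and Mup10 were saturated in Wip1 KO at 36 h and moved at least 3.11 and 3.02. Cyp4a12b, a male-biased P450 that was not above background in Wip1 KO at 24 h, was 26.2-fold up at the value set for that channel. Mup, Cyp2c, Cyp2d, Cyp4a, Cyp3a and Sult genes are families of near copies, so their values may be shared between members.

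The Y-linked helicase gene Ddx3y was at 9.22 in Wip1 KO and 9.13 in WT at 24 h and at 11.20 and 9.79 at 36 h, so its ratio went from 0.09 to 1.40 (1.32), with all 4 channels above background. The X-linked counterparts of Ddx3y and Eif2s3y, a helicase and a translation initiation factor subunit, were at 0.09 (Ddx3x) and 0.08 (Eif2s3x). Of 2 probes of Eif2s3y, one was above background in Wip1 KO at 36 h alone (10.998 there, and 6.48 to 7.16 in the other channels), and the other was above background in 3 channels with a difference of -0.27. Kdm5d was dim in WT at 24 h, Usp9y in Wip1 KO at 36 h, and Uty, Zfy1 and Sry in all channels. Since the labels do not give the sex of the mice, a difference of genotype and a difference in the sexes of the animals in a channel cannot be told apart for these genes. Without the measured genes of both sex-biased lists and the 4 measured genes of a short list of X and Y dosage genes, 274 of 6986 genes moved up and 281 moved down. Only 13 of the 287 genes up and 13 of the 294 down were on these lists, so the counts could change little. Mup4, Mup5 and Mup10 are on none of these lists and stayed in, and the part of sex was not tested.

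Akr1c18, which inactivates progesterone, had the lowest difference among the genes brighter than the median gene: 11.25 and 10.39 at 24 h, and 8.20 and 12.55 at 36 h (-5.21, 36.9-fold). The aldo-keto reductase Akr1b7 was level at 24 h (9.30 and 9.27) and apart at 36 h (9.63 and 12.69; -3.09), and the surface antigen gene Ly6d went from 10.93 and 11.74 to 8.68 and 12.10 (-2.62). In these 3 genes WT at 36 h was the highest channel.

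**Figure D5:**
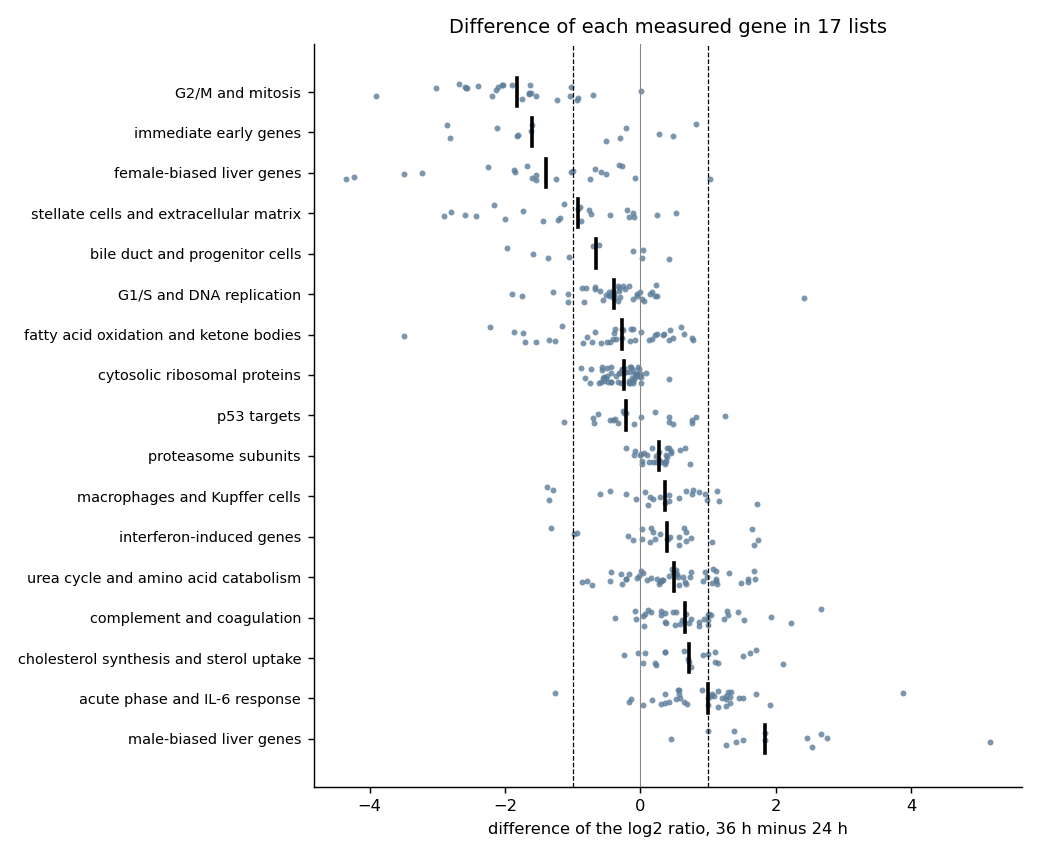
Difference of the log2 ratio, 36 h minus 24 h, for each measured gene of 17 lists (points, spread vertically at random within a list), with the list median as a black bar and the 2-fold threshold as dashed lines. The 13 male-biased genes all lie above 0 and 25 of 26 genes of G2 and mitosis lie below it, while p53 targets lie on both sides of 0 around a median of -0.21.

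Acute phase genes moved up. Of 37 measured genes 34 were above 0 and 19 moved up at least 2-fold, against 1 down (Il1rn, -1.26), and the median went from -0.10 to 0.73. WT was lower at 36 h than at 24 h (30 of 37 genes, median -0.43) and Wip1 KO higher (32 of 37, median 0.48). Saa4, a serum amyloid A protein, was at 12.19 and 13.62 at 24 h and at 14.57 and 12.12 at 36 h (3.88, 14.7-fold). Its relative Saa1, the main inducible form, was at 14.52 and 15.19 and then at 15.61 and 14.36 (1.92). WT was the higher channel for both at 24 h and Wip1 KO at 36 h; Saa genes are near copies and their probes may not tell them apart. Steap4, a metalloreductase induced by IL-6, was level at 24 h (12.37 and 12.38) and apart at 36 h (13.51 and 11.82; 1.71), Lcn2 was at 1.51 and Socs3, the feedback inhibitor of IL-6 signalling, at 1.20. The murinoglobulins Mug1 and Mug2 (1.14 and 1.15), haemopexin Hpx (1.33) and C-reactive protein Crp (1.33) were also past 2-fold. The interleukin 6 receptor chain Il6st was at 0.32 and Stat3 at 0.58.

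STAT factors carry the IL-6 signal and bind TTCNNNGAA, a motif that was searched here after the acute phase values had been seen. It was present in 11 of 32 acute phase windows (34.4%), against 8.47% of all windows, 7.0% of those of measured genes and 8.18% of those of genes that moved up at least 2-fold. Among the sex-biased genes, whose growth hormone signal also ends in a STAT factor, 2 of 11 male-biased windows (18.2%) and 1 of 16 female-biased windows (6.25%) held it. The windows of Saa4, Saa1 and Lcn2, among the highest of the list, did not hold it. Matches were found in Steap4, Apcs, Fga, Socs3 and Itih4, which moved up at least 2-fold. They were also found in Hamp, Ctsc, Hamp2, Fgb, Agt and Serpina3g, which did not. Genes with and without a match thus lay on both sides of the 2-fold threshold, and a match is no evidence of binding. The windows of Steap4, the highest gene of the list with a match, and of Socs3, the inhibitor of the IL-6 signal, are given with the motif in capitals.
Steap4: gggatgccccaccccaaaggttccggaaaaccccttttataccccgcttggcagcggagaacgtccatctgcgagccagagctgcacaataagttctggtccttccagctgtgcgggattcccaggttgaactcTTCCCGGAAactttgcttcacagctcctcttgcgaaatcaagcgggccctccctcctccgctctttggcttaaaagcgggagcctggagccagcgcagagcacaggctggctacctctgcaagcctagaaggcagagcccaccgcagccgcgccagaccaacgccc
Socs3: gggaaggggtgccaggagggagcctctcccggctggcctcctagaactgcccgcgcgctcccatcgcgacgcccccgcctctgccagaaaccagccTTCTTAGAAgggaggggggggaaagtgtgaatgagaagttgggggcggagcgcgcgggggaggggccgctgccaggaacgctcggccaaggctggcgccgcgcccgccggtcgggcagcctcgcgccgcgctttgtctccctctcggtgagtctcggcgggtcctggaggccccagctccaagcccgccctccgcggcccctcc
These windows lie at chr5:7960222-7960521 (Steap4, plus strand) and chr11:117969317-117969616 (Socs3, minus strand), on GRCm38.p6.

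Complement and coagulation genes, also products of the hepatocyte, followed: 35 of 38 were above 0 and 10 moved up at least 2-fold, none down (median 0.66). The terminal complement genes C6 (2.67), C8b (1.93) and C9 (1.53) and the classical pathway gene C4b (2.22) led, and C6 is on the male-biased list too. C8b was at 11.69 and 11.74 at 24 h and at 13.27 and 11.40 at 36 h. The fibrinogen chains were at 1.29 (Fga), 1.00 (Fgg) and 0.36 (Fgb), while the lectin gene Mbl2 was lowest (-0.37). Interferon-induced genes were low in Wip1 KO at both times (list medians -0.55 and -0.39) with 20 of 25 genes above 0 in the difference. The GTPase genes Tgtp1 (1.74), Irgm1 (1.68) and Ifi47 (1.66) moved up from below to above equality, Usp18 moved up while staying below it (1.07), and Ifi27 moved down (-1.32). The 2 probes of Tgtp1 gave 0.24 and 1.74.

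Cholesterol synthesis and sterol uptake genes, targets of SREBP2, kept their level in Wip1 KO and were lower at 36 h in WT. The median change of the 21 measured genes was -0.06 in Wip1 KO and -1.06 in WT, 19 were above 0 in the difference, 7 moved up at least 2-fold and none down (median 0.72). Idi1, the isopentenyl diphosphate isomerase, was at 10.49 and 10.71 at 24 h and at 10.84 and 8.95 at 36 h (2.11, 4.30-fold). WT at 36 h was the 1 low channel. Cyp51, the lanosterol demethylase (1.71), Fdps, which makes farnesyl diphosphate (1.62), the sterol dehydrogenase gene Nsdhl (1.52) and the SREBP brake Insig1 (1.14) were on the same side.

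Amino acid metabolism moved up too. Of 52 measured genes for the urea cycle and the breakdown of amino acids 40 were above 0, 12 moved up at least 2-fold and none down (median 0.50). Cps1, which fixes ammonia at the entry of the urea cycle, was at 11.40 and 10.94 at 24 h and at 11.76 and 9.62 at 36 h (1.69, 3.22-fold). Bhmt, which remethylates homocysteine (1.70), serine dehydratase Sds (1.60), tyrosine aminotransferase Tat (1.49), tryptophan dioxygenase Tdo2 (1.31) and argininosuccinate lyase Asl (1.14) were also past 2-fold, whereas arginase Arg1 (0.16) and Otc (0.29) were not. Oat, a pericentral enzyme, was lowest (-0.87). Of 12 measured pericentral genes Rgn (regucalcin) moved down (-1.28) and Cyp2e1 up (1.16). Glul, glutamine synthetase, was dim in Wip1 KO at 36 h and 5.30-fold down at the value set for that channel.

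Bile acid genes split. Of 24 measured genes 5 moved up and 5 down at least 2-fold (median 0.40). Up moved, besides Cyp7b1, the sterol carrier Scp2 (2.09), Slco1a1 (1.85), the sterol exporter Abca1 (1.31) and the uptake transporter Slco1b2 (1.04). Down moved the basolateral transporter chain Slc51b (-1.56), Slco1a4 (-1.44), the sterol exporter Abcg5 (-1.43), the oxysterol hydroxylase Cyp39a1 (-1.42) and Nr0b2 (-1.37), which encodes SHP, the repressor of bile acid synthesis. Nr0b2 was at 11.51 and 10.02 at 24 h and at 11.17 and 11.05 at 36 h, so WT came up to Wip1 KO. Cyp8b1, the 12-alpha hydroxylase that SHP represses, was dim in Wip1 KO at 24 h and 16.2-fold up at the value set for that channel.

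Of 41 measured genes of fatty acid oxidation and ketone bodies 9 moved down at least 2-fold and none up (median -0.27). The omega hydroxylase Cyp4a14 was at 12.63 and 13.16 at 24 h and at 9.53 and 13.55 at 36 h (-3.50, 11.3-fold), and Cyp4a10 was at 12.13 and 13.26 and then at 10.88 and 14.24 (-2.22). Wip1 KO at 36 h was the lowest channel for both, and Cyp4a14 is also female-biased. Fabp1, the liver fatty acid binding protein (-1.87), Acot4 (-1.73), Ehhadh (-1.71), Vnn1 (-1.55) and Acaa1b (-1.36) moved with them, while Cpt2 (-0.14) and Acadvl (0.34) did not pass 2-fold. Fat synthesis diverged (31 genes, 6 up, 3 down, median 0.07), with Thrsp (2.05), G0s2 (1.65), Acss2 (1.44) and Acly (1.25) up, and the lipid droplet coat gene Plin2 (-1.45) and Elovl6 (-1.21) down. Among glucose genes Fbp1, the gluconeogenic bisphosphatase, moved up (1.92), and Pck2 (-1.21) and the glucose transporter Slc2a2 (-1.20) down (26 genes, median -0.14, and 0.06 with median centring).

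Detoxification genes moved both ways. Among 29 P450 genes of families 1 to 3, 4 moved up and 6 down (median -0.09, and 0.10 with median centring), with Cyp2b9 (-4.23), Cyp2c55 (-3.29), Cyp2b10 (-1.85) and Cyp2c23 (-1.58) at the low end. Of 38 glutathione and oxidative stress genes 11 moved down and 2 up (median -0.32), lowest of all Akr1b7. The alpha class transferases Gsta1 (11.77 and 10.65 at 24 h, 9.84 and 11.28 at 36 h; -2.57), Gsta2 (-2.06) and Gsta4 (-1.92) were lower at 36 h in Wip1 KO, and are near copies of each other. Haem oxygenase Hmox1 (-1.37) and sulfiredoxin Srxn1 (-1.20), targets of NRF2, also moved down, and Gstp1, the male-biased pi class transferase, moved up (1.52). Conjugating enzymes had 6 up and 4 down of 36 (median -0.02), with the anion transporter Slc22a7 highest (2.19). Among plasma carriers Serpina7, the thyroxine binding globulin, was at 13.25 and 11.23 at 24 h and at 11.49 and 11.91 at 36 h (-2.44), and Apoa5 moved up (1.09).

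Lists of housekeeping machinery had medians close to 0. Of 53 measured cytosolic ribosomal protein genes 48 were below 0 and 5 above, with 0 past 2-fold and a median of -0.24, which was -0.026 with median centring; Rpl5 was lowest (-0.88; 2 probes, -0.88 and -0.64, and its 48 control spots -0.64 ± 0.12, SD over spots). Of 29 proteasome genes 25 were above 0, none past 2-fold (median 0.28, and 0.48 with median centring), with Psmd4 at 0.73. Of 29 heat shock and chaperone genes 22 were above 0 (median 0.31), with Hspb8 (1.24) and Hsp90aa1 (1.12) up and Cryab (-1.03) down. Of 39 translation factors and tRNA synthetases (median 0.15) the scaffold gene Eif4g1 moved up (1.65). Respiratory chain genes stayed (57 genes, median 0.05, none past 2-fold), as did ribosome biogenesis factors (34 genes, median 0.11, none past 2-fold). The sizes of these medians are below the SD of 0.35 between probes of 1 gene. That SD describes single probes and not the precision of a list median. Among 14 clock genes the repressor Cry1 (1.74) and the activator Arntl (1.24) moved up and Nr1d2, the repressor REV-ERB beta, down (-1.16); the labels do not give the hour of day at which the livers were taken, and the part of the clock in these values was not tested.

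Among 28 genes of endoplasmic reticulum folding and the ATF4 response (median 0.04) none moved up and 3 moved down: the stress-induced transcription regulator Nupr1 (-1.39), Herpud1, a part of protein degradation at the endoplasmic reticulum (-1.34), and the serine synthesis gene Psph (-1.26). Outside this list Derl3, a part of the machine that takes misfolded proteins out of the endoplasmic reticulum, crossed from 8.21 and 10.64 at 24 h to 11.13 and 8.92 at 36 h (4.63, 24.8-fold; its 2 probes gave 3.16 and 4.63). WT was high at 24 h and Wip1 KO at 36 h. Among mTOR and insulin signalling genes Mtor moved down (-1.46) and the feedback gene Sgk1 up (1.16), with 22 genes at a median of 0.11. Of 22 hepatocyte transcription factors the cut homeobox gene Onecut1 (1.58) and the nuclear receptor Nr5a2 (1.17) moved up and Hnf4a was at 0.75. Caspases and Bcl2 family genes had no member past 2-fold (16 genes, median -0.08), with Bax at -0.69 and Fas at 0.82.

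Of the genes past the threshold, 105 of 287 up and 122 of 294 down were in a list, beside 1036 of all 7025 measured genes. The lists were chosen with earlier results of these data known, so nothing is read from these counts. Bright genes outside the lists included Xlr3a, an X-linked gene first described in lymphocytes, which crossed from 7.86 and 10.76 to 11.59 and 9.81 (4.68, 25.6-fold), and Fshb, the beta chain of a pituitary hormone, whose probe was at 12.10 and 12.69 at 24 h and at 12.41 and 9.98 at 36 h (3.02). OTTMUSG00000000231, an entry with no annotated role here, was at 13.82 and 14.48 and then at 14.65 and 12.15 (3.15), and LOC620942, saturated in Wip1 KO at 36 h, moved at least 2.79. Besides Pf4, Id1, Derl3 and Xlr3a, the crossing genes outside the lists were Ptgr1, which breaks down prostaglandins and leukotrienes (-2.87), the kinase gene Map4k4 (-2.66), the lactate exporter Slc16a3 (-2.44) and 1700047G07Rik (-2.09). Each of these 4 was higher in Wip1 KO at 24 h and lower at 36 h. A further 1213 probes without a gene name met the same criterion, of which 42 moved up and 69 down at least 2-fold.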

How the data were processed

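RNA of Wip1 KO and WT livers at 24 h and 36 h was hybridised to 2 arrays with 2 dyes, 1 array per time, with Wip1 KO in Cy5 and WT in Cy3 on both. The authors deposited LuxScan scanner files, which per the file headers hold spot and background intensities per channel, not normalised. They also deposited a table of ratios, KO over WT, whose normalisation is not given in the sources used here. Its rows carry no probe names; with the gene probes in descending order of probe ID they correlated with the log ratios computed here at 0.971 (24 h, 10479 probes) and 0.974 (36 h, 9733 probes), and at 0.0260 and 0.0432 when shifted by 1 row.

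Spot medians were background-corrected by normexp with an offset of 50 and normalised within each array by loess, with control spots at weight 0 (limma 3.58.1, R 4.3.3). Single-channel log2 intensities were made comparable by Aquantile. A gene was represented by its brightest probe, and genes not above background in exactly 1 channel were given a bound, with that channel at the higher of its own value and the lowest signal above background there. Such a bound is an estimate, since the true signal of that channel may be higher. Of 19439 gene names, 14166 matched a RefSeq symbol (GRCm38.p6), 3898 a single synonym, 62 several synonyms and 1372 none, and the last groups kept the name in the files. A move of 1 on the log2 scale (2-fold) was called. The calculation was checked on simulated shifts, with the same dye bias on both arrays, and recovered the sign and size set. That check covers the calculation and not the precision of these data. With 1 array per time the number of arrays limits the precision, and there were no p-values.

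The members and gene lists were chosen with earlier results of these data known. Genes were named by rule: Ppm1d, Y-linked genes, the 10 highest and 10 lowest differences among genes brighter than the median gene, up to 4 genes per list in the direction of its median and up to 2 that moved at least 2-fold the other way, genes at least 2-fold apart in opposite directions at the 2 times, and the 3 genes just inside and outside each threshold. Other list members, among them Ccnb1, Cdc20, Top2a, Ccna2, Prom1, Cyp8b1, Cyp4a12b, Glul, Myc, Timp1, Pttg1, Alb and Fn1, were named after their values were seen, as was the search for TTCNNNGAA in acute phase genes. Promoter windows were taken from RefSeq (GRCm38.p6). Alternatives were median centring, print-tip loess, plain background subtraction, no background correction, spot means, other filters on dim spots, bounds, the mean over probes, and the authors' deposited ratios. Leaving out the measured genes of the sex-biased lists and of a short list of X and Y dosage genes was added after the data were seen. Values of 1213 probes without a gene name were only counted. A few list members are not reported by name here.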

Additional observations from a re-analysis of the deposited data

Results flagged for a closer look

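At least 2-fold differences between the genotypes in opposite directions at the 2 times were found in 19 genes, and for none of them was the difference tested, since each time had 1 array. In 16 genes Wip1 KO was at least 2-fold above WT at 24 h and at least 2-fold below it at 36 h. Their differences of the log2 ratio were -4.30 for Pf4, -4.23 for Cyp2b9, -4.02 for Igfbp1, -3.91 for Ccnb2, -3.33 for Id1, -2.90 for Tagln, -2.87 for Ptgr1 and -2.86 for Ier3. They were -2.79 for Acta2, -2.67 for Ttk, -2.66 for Map4k4, -2.60 for Mki67, -2.57 for Gsta1, -2.44 for Slc16a3, -2.43 for Lgals1 and -2.09 for 1700047G07Rik. In 3 genes the order was the opposite, with differences of 3.88 for Saa4, 4.63 for Derl3 and 4.68 for Xlr3a.

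In 3 gene lists the median ratio was above 0 at 24 h and below 0 at 36 h, by more than 0.35 at each time. They were G2/M and mitosis (median difference -1.82), immediate early genes (-1.60) and stellate cells and extracellular matrix (-0.91). These differences were not tested either. The cut of 0.35 is the SD of the difference between probes of 1 gene. For the ratio of 1 time that SD was 0.24 at 24 h and 0.25 at 36 h, and none of them describes a list median. The stellate list passed the cut narrowly at 36 h (-0.36).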

How the results depend on the processing

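None of the 287 genes that moved up and 294 that moved down at least 2-fold took the other sign under an alternative that gave it a value. Filters on dim spots, bounds and the omission of sex-biased genes keep each gene's value, so they could not change a sign. The other settings process the same 2 arrays, and a change of sign there needs a shift of at least 1 log2 unit. Median centring gave 475 up and 213 down, with the median of all genes at 0.22 in place of 0.03. Without the filter on dim spots 507 of 19439 genes moved down and 363 moved up. Under the other alternatives the counts stayed within 1.5 times of those reported, from 234 to 376 up and from 217 to 418 down. The authors' deposited ratios gave 373 each way, with 276 of the 287 and 286 of the 294 genes among them. Without the filter on dim spots the list medians were -0.43 for immediate early genes, 1.41 for male-biased genes, -0.24 for bile duct and progenitor cells and -0.074 for erythroid cells, over more and dimmer genes. With the stricter filter of 4 background SDs they were -0.30 for p38 and JNK stress kinases and -0.012 for immediate early genes, over 7 and 4 genes. Of 42 lists 8 took the other sign under some alternative, 1 of them (growth factors, -0.02 without the filter) among the 23 lists with medians at least 0.25 from 0. Of the values of single named genes, 2104 moved by less than 0.35, the SD between probes of 1 gene, and 79 by more. The 2104 include the settings on filters and bounds, which keep a gene's value. No paired analysis was possible because each time had 1 array with 1 sample per genotype, and for the same reason no replicate could be left out. Signal over background limits the gene set: 11343 genes were below background in at least 2 channels.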
